A study of Oncorhynchus kisutch with 221 samples.

Results

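The 9 coho salmon labelled as ocean winter fish fell into 2 sets on the value of 1 array probe, C189R113. It was below -1 in 4 fish, called the low set here, and above 0 in the other 5, the high set. They were 9 of 221 fish. The values of C189R113 chose the sets, were taken from the same arrays as every other value below, and are given as a description only. They were -2.69, -3.98, -4.23 and -1.72 in winter fish 1, 2, 5 and 7, which make up the low set. They were 1.69, 1.32, 1.19, 1.46 and 0.51 in winter fish 3, 4, 6, 8 and 9, which make up the high set. The fish nearest to the limits were thus winter fish 7, at -1.72, and winter fish 9, at 0.51, and no winter fish lay between. Numbers within a stage follow the order of deposit and only name a fish.

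Coho salmon (Oncorhynchus kisutch) hatch in streams, live there as parr, turn into smolts that tolerate seawater, and feed in the ocean before they return to spawn. White muscle, the fast, mainly anaerobic muscle that powers bursts of swimming, makes up most of the fillet and of the body's protein. It is also the main protein store that a salmon draws on when food is scarce, and its transcripts are known to follow growth, feeding and temperature.

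RNA of each fish was hybridised on its own array together with a pool of muscle RNA that carried another dye. The sets are compared with the other life stages of the series. These were 9 parr and 48 smolts from rivers, and 15 spring, 64 summer and 76 fall fish from the ocean. No treatment or genotype is given for any fish, and all were of 1 tissue, white muscle. All 9 winter fish were caught in 2009. Most fall fish were also of 2009 and the others of the year before, and most were caught in the Strait of Georgia. The parr were all hatchery fish of the Chilliwack River from that earlier year. The spring fish were all wild and caught in the southern Strait of Georgia in 2009. Smolts, summer and fall fish were of both origins and both years. In parr and spring fish, stage thus cannot be told apart from origin, place and year. The values as deposited were read as log2 of fish over pool, in which 1 unit is a 2-fold change. No source used here states the log base or the direction, so this reading is likely rather than known, and every direction below rests on it. The 43636 probes could not be matched to genes with the tables used here. The labelled tissue was therefore not checked against marker genes, and probes carry their array names. Empty values made up 47.3% of the table. The number of arrays limits the precision.

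Below -1 on C189R113 lay all 9 parr, 30 of 48 smolts, 8 of 15 spring fish, 26 of 64 summer fish and 14 of 76 fall fish. Above 0 lay no parr, 13 smolts, 4 spring fish, 15 summer fish and 49 fall fish. Both sides of the winter rule were therefore occupied in the smolts and in each ocean stage. In fall fish, the season before winter, C189R113 had a median of 0.76 and ran from -4.50 to 2.15.

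The labels that the rule did not use overlapped between the sets. Fork length was 33.6, 35.6, 35.4 and 32.3 cm in low set fish 1, 2, 5 and 7. It was 35.3, 38, 36.1, 29.9 and 34.3 cm in high set fish 3, 4, 6, 8 and 9. The mean was 34.2 cm ± 1.57 in the low set and 34.7 cm ± 3.02 in the high set (SD, n = 4 and 5), a difference of -0.495 cm (exact permutation test, two-sided, p = 0.81). Fall fish averaged 25.3 cm ± 2.99 (SD, n = 76). The longest fall fish, at 35.2 cm, lay within the range of both sets.

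Body mass was 433, 484, 575 and 455 g in the low set, against 518, 670, 582, 339 and 526 g in the high set, in the same order of fish. Means were 487 g ± 62.4 and 527 g ± 121 (SD), with an exact permutation p of 0.563. Condition factor, 100 times the mass in g over the cube of the length in cm, is a measure of how heavy a fish is for its length. It averaged 1.22 ± 0.13 in the low set (SD, n = 4), against 1.24 ± 0.048 in the high set (SD, n = 5), with an exact permutation p of 0.69. The ranges of both quantities overlapped. With 126 ways to split the 9 fish, such a test cannot give a p below the share of a single split.

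Females were 2 of 4 fish in the low set and 3 of 5 in the high set (Fisher's exact test, p = 1). Hatchery fish were 1 of 4, against 4 of 5 (Fisher's exact test, p = 0.206). The west coast of Vancouver Island was the catch area of 2 of 4 low set fish and of 4 of 5 high set fish, and the others came from the middle of the Strait of Georgia (Fisher's exact test, p = 0.524). After Benjamini-Hochberg adjustment over these 6 exact tests, p was 1 for sex and 0.971 for the others. With 9 fish, a p of this size does not show that the sets are alike in a label. Origin had the lowest p, with a single hatchery fish in the low set and a single wild fish in the high set. At 1 west coast catch position both sets were present, with 2 low set fish (5 and 7) and 3 high set fish (6, 8 and 9).

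By a region label other than the catch area, the low set held 2 Fraser fish (1 and 2), 1 Puget Sound fish (5) and 1 fish labelled North (7). In the high set, 4 fish carried the Puget Sound label and fish 3 the label S_Main. Puget Sound fish thus stood on both sides.

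Slide could not be told apart from set. The low set lay on slides A (fish 1 and 5), B (fish 2) and C (fish 7), and the high set on slides D (fish 3), E (fish 4, 6 and 8) and F (fish 9). No slide held both sets. Slides A and E held winter fish only, and the other 4 also held fish of other stages. Empty values made up 38.3%, 46.7%, 38.9% and 37.4% of the probes in low set fish 1, 2, 5 and 7. They made up 27.7%, 66.0%, 67.8%, 67.1% and 49.3% in high set fish 3, 4, 6, 8 and 9. The 3 fish of slide E had the most empty values and fish 3 the fewest, so the high set surrounded the low set on this measure. The spread of an array, as the interquartile range of its values, averaged 0.715 ± 0.160 in the low set (SD, n = 4), 0.505 ± 0.047 in the high set (SD, n = 5) and 0.62 ± 0.116 in fall fish (SD, n = 76). Every low set array was wider than every high set array. What part the slide had in the differences between the winter sets was not tested. Slide was entered only in the slope fits on fish of other stages, given further below. For the array spread, counts on arrays scaled to a common interquartile range are given beside the main ones.

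Both sets were set side by side over the 12091 probes with a value in all 9 fish, with C189R113 left out. Of these, 722 were at least 1 lower in the low set with no overlap between the fish of the sets, and 362 were at least 1 higher with no overlap. These are 5.97% and 2.99% of the 12091 probes. Because the sets were chosen on the same arrays, the counts describe these 9 fish, nothing is read from the shares, and no test is given. Without the requirement of 1 unit, 1422 probes (11.8%) were lower and 965 (7.98%) higher with no overlap. After all arrays were scaled to a common interquartile range, 573 probes were lower and 333 higher by the rule of at least 1 unit with no overlap. The median difference was -1.45 among the 722 lower probes and 1.27 among the 362 higher probes. At least 2 units apart were 154 of the lower and 29 of the higher probes. Muscle RNA was measured in bulk, so fewer cells of a type and less RNA per cell cannot be told apart. Over all 12091 probes the low set lay 0.099 below the high set (median difference -0.099). The share of higher probes among those counted was 33.4% as deposited, 43.1% after median centring (457 higher and 604 lower) and 43.3% after quantile normalization (396 higher and 518 lower).

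The probe with the largest positive difference, 4.86, was C113R107. It had 1.95, 0.90, 1.25 and 1.02 in low set fish 1, 2, 5 and 7, against -4.03, -3.55, -3.99, -3.35 and -2.99 in high set fish 3, 4, 6, 8 and 9. Every low set fish was above the pool and every high set fish at least 2.99 below it. The 75 fall fish with a value had a median of -3.03 and ran from -4.93 to 2.90, so both sets lay within the fall range.

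C151R127, with a difference of 4.49, stood at 0.25, 1.53, -0.30 and -0.36 in the low set. It stood at -5.46, -3.66, -3.28, -2.31 and -6.32 in the high set. The high set was spread over 4 units, yet its highest fish was below the lowest of the low set. In fall fish the probe had a median of -4.72 and ran from -7.76 to 0.65. In parr it had a median of 2.67 and in summer fish one of -2.91.

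The most negative difference, -5.47, belonged to C151R100. Its values were -5.89, -1.69, -5.37 and -4.51 in the low set and 0.45, -0.58, 1.79, 1.57 and 2.32 in the high set. Low set fish 2 was apart from the other fish of its set and came within about 1 unit of high set fish 4. Fall fish had a median of -1.0 and ran from -5.61 to 3.20, a range that held every winter fish but low set fish 1.

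C092R164, at a difference of -4.98, was the most even within the sets. It had -3.97, -3.16, -3.69 and -3.20 in the low set and 1.25, 1.34, 1.27, 1.71 and 1.81 in the high set. All 4 low set fish were below the lowest fall fish, at -3.02, while the high set lay within the fall range, whose median was 0.39 and highest value 3.36. Parr had a median of -2.58 and smolts one of -2.55.

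**Figure D1:**
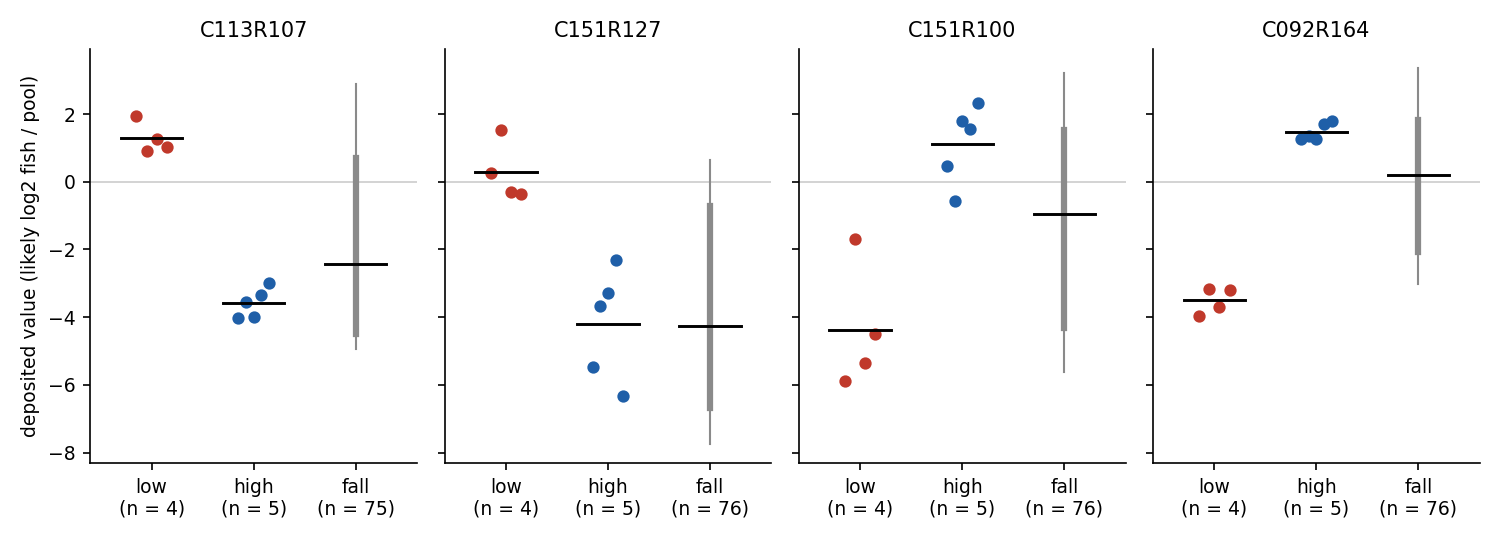
Deposited values (vertical axis, likely log2 of fish over pool) of the 4 probes with the largest differences between the winter sets. Points are single fish of the low set (red, n = 4) and the high set (blue, n = 5), black bars are means, and the grey lines give the fall fish from lowest to highest (thin) and from the 10th to the 90th percentile (thick). The sets do not overlap in any of the 4, by the choice of the probes, and in C092R164 the low set lies below every fall fish.

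Set against the mean of the fall fish, the sets stood at unlike distances. In the low set, 981 of 12091 probes were at least 1 below the fall mean (8.11%) and 485 at least 1 above it (4.01%). In the high set, 66 were at least 1 below (0.546%) and 104 at least 1 above (0.86%). The median absolute distance from the fall mean was 0.39 for the low set mean and 0.16 for the high set mean. After quantile normalization the low set's counts were 573 lower and 471 higher, so the share of higher probes was 45.1% in place of 33.1%. With arrays scaled to a common interquartile range, 691 probes were lower and 366 higher in the low set, against 106 lower and 142 higher in the high set.

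Probes in which every fish of a set lay beyond the fall range between the 10th and 90th percentiles were also counted. For the low set, 709 probes were below it in all 4 fish (5.86%) and 496 above it (4.10%). For the high set, 2 probes were below it in all 5 fish (0.0165%) and 15 above it (0.124%). The high set had to meet this in 5 fish and the low set in 4. Of the 722 probes that were lower in the low set, the fall mean was nearer to the high set mean in 681 (94.3%), and of the 362 higher probes in 354 (97.8%). Their median distance from the fall mean was -1.26 and 1.22 for the low set, against 0.21 and -0.12 for the high set. In most of the probes that separated the sets, the low set thus stood farther from fall. Over all 12091 probes the low set mean also lay farther from the fall mean (median absolute distance 0.39, against 0.16 for the high set). The share with fall nearer to the high set was not computed over all probes. Nothing particular to the separating probes is read from it.

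The root mean square distance of a fish from the fall mean, over the same probes, was 0.976, 0.740, 0.860 and 0.728 in low set fish 1, 2, 5 and 7. It was 0.518, 0.448, 0.427, 0.459 and 0.537 in high set fish 3, 4, 6, 8 and 9. Single fall fish, each measured against the mean of the other fall fish, had a median of 0.489 and ran from 0.401 to 1.01. The high set lay around that median. Only 8 of 76 fall fish were at least as far from the fall mean as low set fish 7, the nearest of its set, whereas 28 were at least as far as high set fish 9, the farthest of its set. The low set arrays were also wider than those of the high set. This distance was not computed on arrays scaled to a common interquartile range.

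The probe farthest above the fall mean in the low set, among those with every fish beyond the fall percentiles, was C151R127 (4.53). The next was C249R116 (4.21). C249R116 had -0.24, 0.85, -0.99 and -0.40 in the low set, -5.78, -3.29, -3.05, -2.69 and -7.08 in the high set, and a fall median of -4.83 within a range from -7.60 to 0.87. The high set means lay 0.04 above the fall mean in C151R127 and 0.03 above it in C249R116. Both had their highest stage median in parr, at 2.67 for C151R127 and 2.93 for C249R116.

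Farthest below the fall mean in the low set was C147R060 (-4.14). Its values were -5.80, -3.39, -3.60 and -5.27 in the low set and 0.36, 0.86, 0.67, 0.49 and -0.05 in the high set. No fall fish reached the low set, since the lowest was at -3.30, with a fall median of -0.37. C248R119 (-3.76) had -3.29, -2.93, -5.23 and -4.51 in the low set and -1.68, -0.01, 0.16, -1.04 and 0.19 in the high set. Here the lowest fall fish, at -3.42, was below low set fish 1 and 2, and the fall median was 0.07.

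Differences between the high set and fall were smaller. C049R165, the highest by the same rule (2.43 above the fall mean), had 2.21, 1.64, 1.21, 1.15 and 3.58 in the high set and a fall range from -3.01 to 4.65 with a median of -0.50. C151R067 was 1.76 above the fall mean, at 1.08, 1.13, 2.08, 2.0 and 1.36 in the high set, with 1.93 in the highest fall fish. The only probes below the fall 10th percentile in all 5 fish were C055R014 (-1.16 from the fall mean) and C194R147 (-0.92). C194R147 had -1.29, -0.45, -0.76, -0.94 and -0.46 in the high set, and 0.49, 0.37, 1.20 and 0.91 in the low set, so the sets were on opposite sides of the fall mean of 0.14.

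Each fish was next summarised by its mean value over the 722 lower and over the 362 higher probes. For the lower probes this was -1.59, -1.02, -1.45 and -1.23 in low set fish 1, 2, 5 and 7, against 0.24, 0.36, 0.33, 0.36 and 0.42 in high set fish 3, 4, 6, 8 and 9. For the higher probes it was 1.03, 0.54, 0.95 and 0.70, against -0.54, -0.76, -0.56, -0.53 and -0.79. Fish 2 was the least extreme of the low set on both. All of these probes had a value in the 9 winter fish. In fish of other stages empty values were left out, so each mean rests on the probes with a value in that fish. The gap between the sets follows from the choice of the probes, which did not use the values of the other stages. That choice also favours probes with extreme values in these winter fish. How far the low set stood from the other stages is thus in part built in.

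Among fall fish the lower probes had a median of 0.12 and ran from -0.89 to 0.53, and the higher probes had a median of -0.56 and ran from -0.97 to 0.65. No fall, summer or spring fish lay within the range of the low set on both means. Such fish were 2 of 9 parr and 3 of 48 smolts. At or beyond the least extreme values of the high set (0.24 and -0.53), in its direction on both, lay 21 fall fish, 2 smolts, 1 spring fish and 1 summer fish. Some of these lay past the most extreme fish of the high set, so they were not all within its range. For the lower probes the stage medians were -1.01 for parr, -0.39 for smolts, -0.48 for spring fish, -0.30 for summer fish and 0.12 for fall fish. For the higher probes parr had 0.41, smolts -0.01, spring fish 0.09, summer fish -0.11 and fall fish -0.56. The low set was therefore on the side of the earlier stages, and on the lower probes no spring, summer or fall fish reached it.

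**Figure D2:**
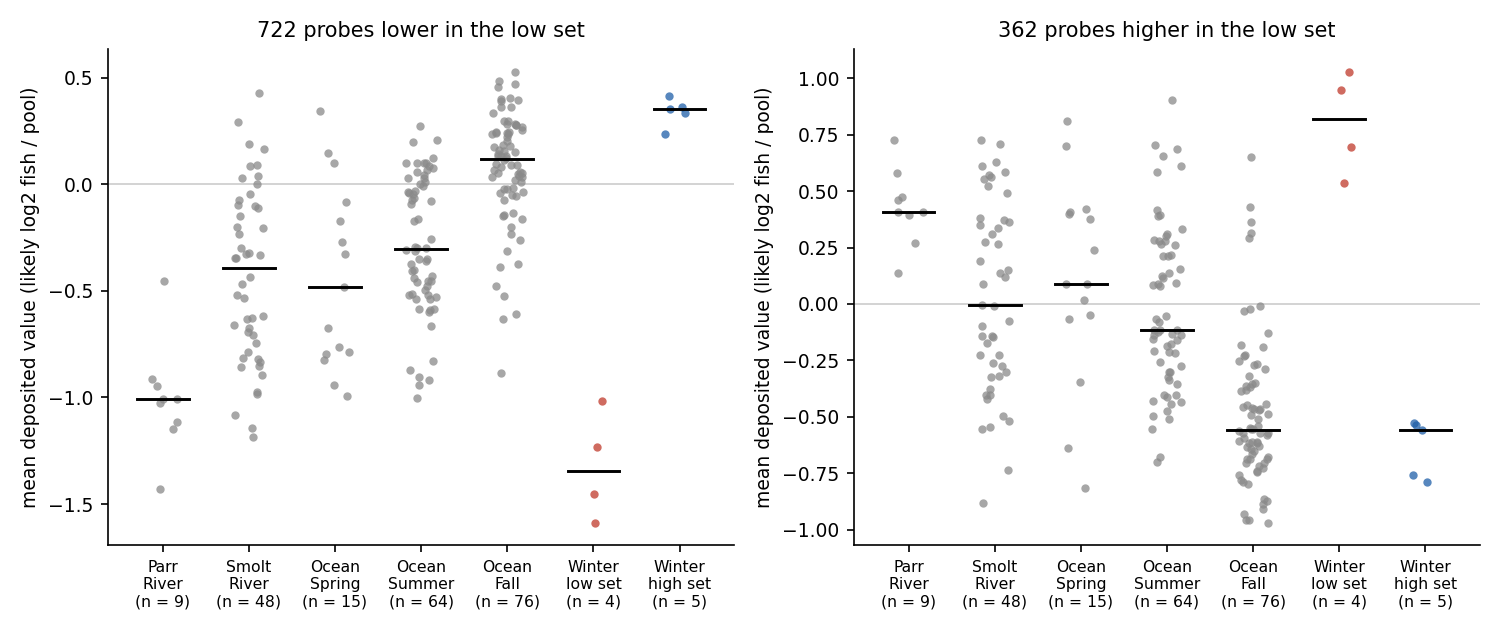
Mean deposited value (vertical axis, likely log2 of fish over pool) of each fish over the 722 probes that were lower (left) and the 362 that were higher (right) in the low set, by life stage. Points are fish and black bars are medians. Empty values were left out of the means. The low set (red) and the high set (blue) are apart because the probes were chosen on them, and the fall fish centre at 0.12 and -0.56, beside the high set.

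On 4 slides, winter fish lay beside fish of other stages. On slide B, low set fish 2 had -1.02 over the lower and 0.54 over the higher probes. The fall fish beside it had 0.15 and -0.45, a summer fish -0.50 and 0.12, and a spring fish -0.67 and 0.38. On slide C, low set fish 7 had -1.23 and 0.70, and the summer fish beside it had 0.09 and -0.41. The 2 smolts of that slide had -0.75 and 0.52, and -0.62 and 0.34. No slide mate of fish 2 or fish 7 lay within the range of the low set on the lower probes. On slide D, high set fish 3 had 0.24 and -0.54. The 3 smolts beside it were all on the other side of 0 on the lower probes, at -0.66, -0.98 and -0.33, with 0.27, 0.63 and -0.23 on the higher probes. On slide F, high set fish 9 had 0.42 and -0.79, and a spring fish beside it had -0.79 and 0.41. Of the 2 fall fish there, the one at 0.25 and -0.64 lay within the range of the high set on both means, and the other had 0.16 and -0.63. For fish 1, 5, 4, 6 and 8, on slides A and E, no fish of another stage was there to compare.

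The likeness of each winter fish to the stages was described by the Pearson correlation of its values with each stage mean, across 12090 probes. Probes are not independent, all arrays share the pool, and the stage means share probe effects, so these are descriptions with no p. In the high set, the fall mean gave the highest correlation in every fish (0.45, 0.53, 0.44, 0.45 and 0.57). The same fish had 0.41, 0.22, 0.17, 0.25 and 0.27 with the smolt mean. In the low set the fall mean gave the lowest correlation in every fish (0.28, -0.10, 0.10 and 0.19). The highest were with spring in fish 1 (0.68), with parr in fish 2 (0.54) and with smolts in fish 5 (0.65) and fish 7 (0.71). When the mean over the stages was taken out of each probe, the low set's correlations with fall were -0.42, -0.38, -0.57 and -0.44. Those of the high set were between 0.41 and 0.59. The stage nearest to fish 5 was then parr, and that of the other winter fish was as before.

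**Figure D3:**
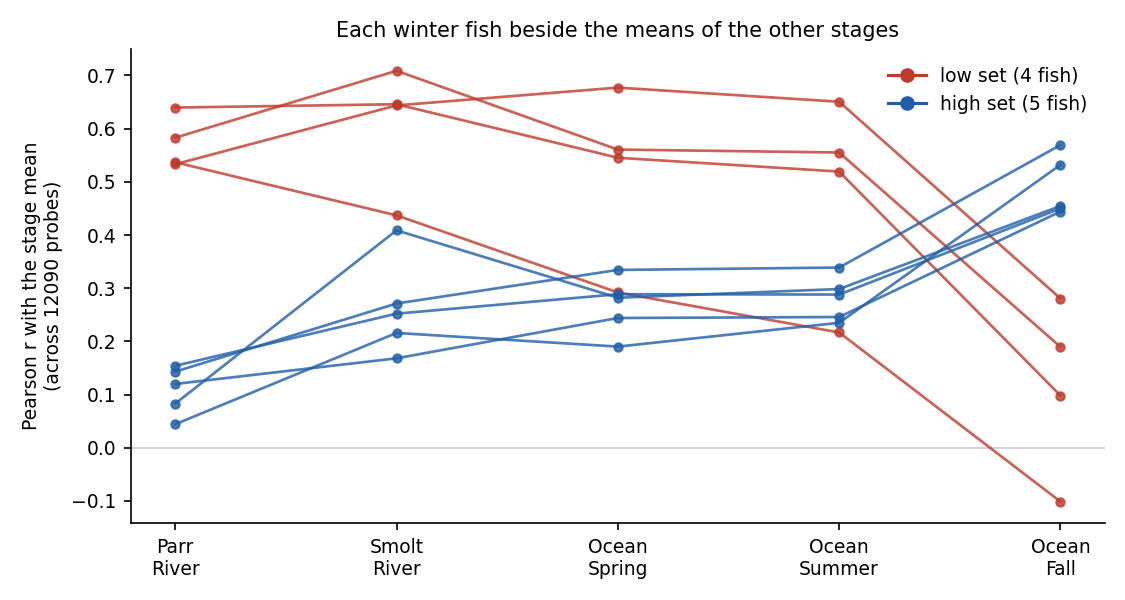
Pearson correlation (vertical axis, no unit) across 12090 probes between each winter fish and the mean of each other stage, in life order (horizontal axis). Each line is 1 fish, 4 of the low set in red and 5 of the high set in blue. Lines of the low set are lowest at fall, between -0.10 and 0.28, and lines of the high set are highest there, between 0.44 and 0.57.

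Between single winter fish, the correlation ran from 0.23 to 0.73 within the low set (median 0.59, 6 pairs) and from 0.36 to 0.62 within the high set (median 0.47, 10 pairs). Between the sets it ran from -0.09 to 0.26 (median 0.04, 20 pairs). With the fall mean taken out of each probe, the correlation ran from 0.26 to 0.75 within the low set (median 0.62) and from 0.22 to 0.55 within the high set (median 0.28). Between the sets it then ran from -0.26 to 0.29 (median 0.01). By the median, correlations were higher within the low set than within the high set in both forms, although the low set's pairs had the wider range. The SD of a probe among the fish had a median of 0.368 in the low set and 0.293 in the high set. By the spread of values, low set fish were thus not the more alike. These are descriptions with no p, over probes that are not independent.

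The difference between the sets was also put beside the steps between the other stages, which share no fish with it. Across 12091 probes, low minus high had a Pearson correlation of -0.76 with fall minus summer and of -0.73 with fall minus smolts. It was -0.67 with fall minus spring (12089 probes) and -0.62 with fall minus parr (12063 probes). The steps that end in fall all share the fall mean. Among steps without fall, the correlation was -0.44 with summer minus parr and -0.40 with smolts minus parr (12063 probes each). With summer minus smolts it was -0.20 (Spearman -0.084). In the step of fall minus summer, 99.4% of the 362 higher probes were negative and 95.6% of the 722 lower probes were positive, against 46.3% negative and 53.7% positive among all probes. In the step of summer minus smolts these shares were 58.6% and 69.5%, against 47.7% negative and 52.3% positive among all probes. Probes that were high in the low set of winter fish were thus mostly ones that stood lower in fall than in summer fish, and the reverse held for the low ones. These are correlations and shares across probes, with no p, and all arrays share the pool.

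The rule was then applied to fish that it had not used, by fitting the slope of each probe on C189R113 in limma within a stage. A positive slope means that a probe was higher in fish with a higher C189R113, as the 722 lower probes were in winter. In the 76 fall fish, 2695 of 22304 probes had a positive slope (12.1%) and 2970 a negative one (13.3%) at a Benjamini-Hochberg adjusted p under 0.05. Of the 722 lower probes, 350 had a positive slope (48.5%) and 19 a negative one. Of the 362 higher probes, 160 had a negative slope (44.2%) and none a positive one, while 2 were positive at an unadjusted p under 0.05 in limma. Median slopes were 0.102 and -0.083 on these lists, against -0.004 over all probes tested. Among the other 11007 probes measured in all winter fish, 14.0% had a positive and 13.6% a negative slope. Slopes ran the same way in summer fish and smolts. In the 64 summer fish 441 of the 722 and 242 of the 362 passed in the winter direction, against 16.8% positive and 16.1% negative over 22152 probes. In the 48 smolts 475 of the 722 and 210 of the 362 did so, against 21.8% positive and 19.2% negative over 22992 probes.

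This relation did not hold within slides in fall fish or smolts. Several slides held fish of a stage from only 1 river, origin or area. A fixed block for slide thus also takes out part of the differences between these, and slide was not told apart from them. C189R113 itself varied by slide. Its SD was 1.64 over all fall fish and 0.975 within slides, and in smolts 2.35 and 1.01. With slide as a fixed block in limma, 4 of 22304 probes had a positive and 1 a negative slope in fall at an adjusted p under 0.05, where 1649 and 1538 did at an unadjusted p under 0.05. Of the 722 lower probes, 2 were then positive, and of the 362 higher probes none was negative, with 11 negative and 22 positive at an unadjusted p under 0.05. The median slopes turned sign in fall, to -0.016 for the lower and 0.028 for the higher probes. They also turned in smolts, to -0.053 and 0.040, where 1 probe in all passed. In summer fish the direction was kept within slides, with medians of 0.093 and -0.122. There 78 of the 722 (10.8%) and 30 of the 362 (8.29%) passed in the winter direction and none in the other, against 304 positive and 229 negative among 22152 probes. Within-slide fits rest on 62 fall fish, 55 summer fish and 41 smolts, the fish that shared a slide with another of their stage. Whether the slopes differ between summer and the other stages was not tested.

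**Figure D4:**
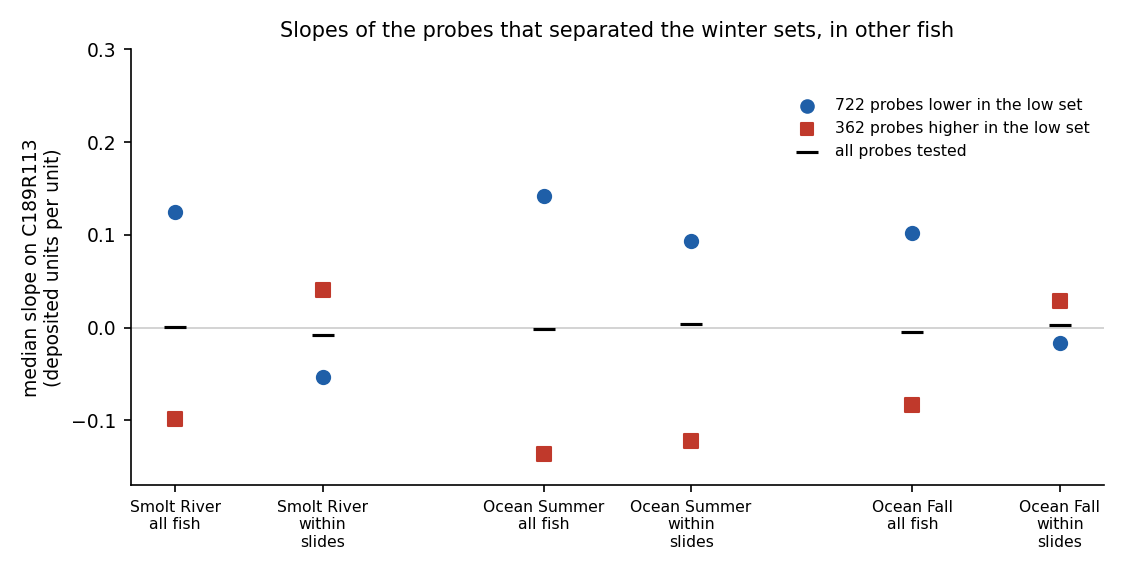
Median slope on C189R113 (vertical axis, deposited units per unit of C189R113) in smolts, summer and fall fish, over all fish and with slide as a fixed block. Circles are the 722 probes that were lower and squares the 362 that were higher in the low set of winter fish, and bars are all probes tested. Circles lie above and squares below 0 in all 3 stages over all fish; within slides this order is kept in summer fish alone.

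C092R164 had slopes of 0.599 ± 0.075 in fall fish, 0.629 ± 0.083 in summer fish and 0.639 ± 0.071 in smolts (SE). Its adjusted p in limma was 8.37e-09, 2.73e-08 and 1.04e-09. Within slides the slopes were 0.50, 0.68 and 0.15, with an adjusted p of 0.126 in fall, 0.0104 in summer and 0.795 in smolts. C113R107 had slopes of -0.939, -0.766 and -0.835 in the same order over all fish (limma adjusted p = 2.04e-12, 3.12e-09 and 1.15e-11). Within slides they were -0.472, -0.407 and 0.008, and none passed (adjusted p = 0.228, 0.149 and 0.988 in limma). C151R127 had slopes of -0.923 in fall fish, -0.893 in summer fish and -1.01 in smolts over all fish (limma adjusted p = 2.58e-10, 8.79e-11 and 9.39e-14). Within slides they were -0.051, -0.642 and -0.166, and the adjusted p was under the threshold in summer alone (0.0343). C151R100, the most negative probe between the winter sets, did not pass in fall fish (slope 0.332, limma adjusted p = 0.085). It passed in summer fish (0.613) and in smolts (0.593) over all fish, with an adjusted p of 0.00141 and 0.000116 in limma. Within slides its slopes were 0.096 in fall fish, -0.063 in summer fish and -0.036 in smolts, and none passed (adjusted p = 0.904, 0.922 and 0.972 in limma). Of the named probes, C194R147 had slopes of -0.019 in fall fish, -0.016 in summer fish and -0.003 in smolts over all fish. Within slides they were 0.121, -0.012 and -0.081, and none passed in either fit.

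Without the 14 fall fish below -1, which leaves fewer fish over a narrower range of C189R113, 6 probes had a positive and 6 a negative slope in limma. The median slopes kept their direction, at 0.047 for the lower and -0.052 for the higher probes. At an unadjusted p under 0.05 in limma, 114 of the 722 were positive and 8 negative, and 50 of the 362 were negative and 1 positive. Over all 22337 probes tested in this fit, 872 were positive and 786 negative at that p. Those 14 fish were not alike. In 5 of them the means over the lower and the higher probes lay beyond the 10th and 90th percentiles of the other 62 fall fish, in the direction of the low set. Their means ran from -0.89 to -0.48 on the lower and from 0.29 to 0.65 on the higher probes. The other 9 ran from -0.38 to 0.14 and from -0.89 to -0.18. The fall fish nearest to the low set, at -0.89 and 0.65, came from the north of the Strait of Georgia, was wild and 25.9 cm long, and had a C189R113 of -4.50. Another with a C189R113 of -4.44 had -0.07 and -0.58, beside most fall fish. A low C189R113 thus went with the other probes in all 4 winter fish that had one, by the choice of the probes. By this measure it did so in 5 of 14 fall fish. Of the other 62 fall fish, at most about 10% can lie beyond both percentiles, since the percentiles were taken from them. All 5 were labelled wild, whereas most of the other 9 were labelled hatchery. Some of the 5 shared a slide with each other, and so did some of the 9. What part origin or slide had in this was not tested.

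**Figure D5:**
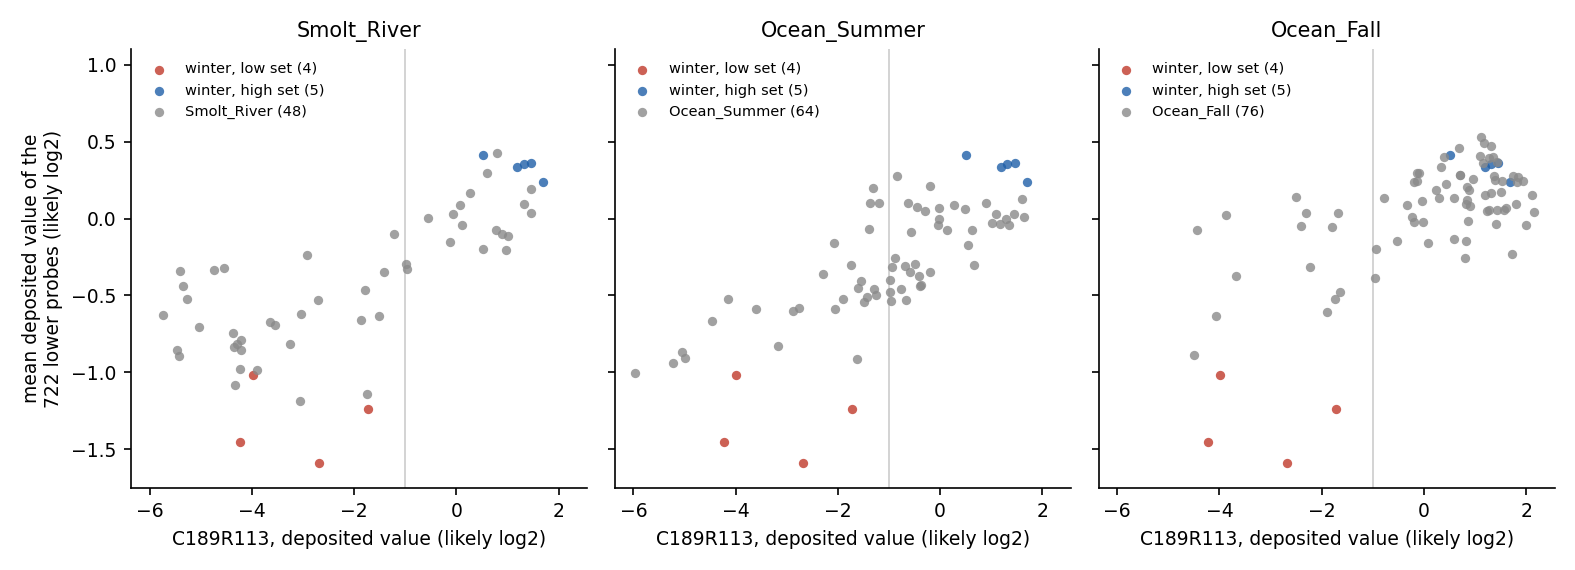
Mean deposited value over the 722 lower probes (vertical axis) against C189R113 (horizontal axis), both likely log2 of fish over pool, in winter fish of the low set (red) and the high set (blue) and in smolts, summer and fall fish (grey, 1 panel each). The vertical line marks -1. Empty values were left out of the means. No summer or fall fish and only a few smolts reach the low set, and 9 of the 14 fall fish left of the line stay between -0.38 and 0.14.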

How the data were processed

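White muscle RNA of 221 fish was measured on 2-colour arrays against a pooled reference, per the labels' protocols. The values are those the authors deposited, likely log2 ratios of fish over pool; array medians lay between -0.011 and 0.033. Spot quantification, background correction, normalization and the reason for empty values are not stated in any source used here. A pool of the same fish puts the mean linear ratio of a probe near 1. For the 372 most variable probes (variance over 1.6) its median log2 was -0.034 read as fish over pool and 1.64 read the other way. Over 11793 probes with a variance up to 0.2 it was 0.116 and -0.031. Of 24310 pairs of arrays, 90 correlated below -0.3, down to -0.426. No direction was turned for this, since all fish had 1 dye per the labels. None of the 43636 probe names was found in the gene table of the Okis_V2 assembly.

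Winter fish were split by C189R113, which was left out of all counts. The members, lists and tests were chosen with earlier results of these data known. Slopes were fitted in R 4.3.3 with limma 3.58.1 (lmFit, eBayes), on probes with a value in at least 50% of the fish, with Benjamini-Hochberg adjustment and a threshold of 0.05. Fisher tests and the adjustment of the label tests used scipy 1.17.1. Exact permutation tests went through all splits of the fish with numpy 2.4.6. Fish are separate animals. Probes named were the 2 highest and 2 lowest between the sets without overlap, and likewise for each set against fall among probes with every fish beyond the fall 10th or 90th percentile. The procedures were tested on simulated data. Alternatives were another scaling, the median, other filters, subsets of fish, covariates and slide as a block.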

Additional observations from a re-analysis of the deposited data

Results flagged for a closer look

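The share of empty values in winter fish 2 of the low set was 46.7%, far from the 37.4% to 38.9% of the other 3 fish of the set by Dixon's test. It was 1 such value among 38 sets of values examined, and chance gives about 1 in 20. Fish 2 was also the least extreme of the low set over the 722 and 362 probes; the part of the empty values in this was not tested.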

How the results depend on the processing

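No paired analysis was possible because replicate numbers follow the order of deposit and pair no fish. Of the alternatives other than leaving out a fish, 66 kept a value or count near its main value and 33 did not. Counts of probes apart between the sets were 641 higher and 1237 lower with west coast fish alone, and 616 and 1245 with the fish of 1 catch position alone, where fewer fish must not overlap. Without the 5 fish of slides that held winter fish only, they were 488 and 903. Leaving out each fish gave 339 to 554 higher and 721 to 1258 lower probes, the highest of both without fish 2. Against fall, leaving out a fish gave 450 to 614 higher and 877 to 1305 lower probes in the low set, and 96 to 120 and 65 to 85 in the high set. Quantile normalization gave 573 lower probes in the low set, and scaling to 1 interquartile range 106 lower in the high set. Against the 30 fall fish of the same year and areas, the high set had 34 lower and 95 higher probes, and the low set 1019 lower and 552 higher. The mean correlation with smolts minus that with fall was 0.492 in the low set and -0.227 in the high set, ran from 0.473 to 0.535 and from -0.272 to -0.204 without single fish, and was 0.619 and -0.369 after the stage means were taken out. The length difference between the sets ran from -1.70 to 0.325 cm, positive without fish 7 (0.147) or fish 4 (0.325), and the mass difference from -87.3 to -4.5 g. That in condition factor ran from -0.071 to 0.0211, positive without fish 2. The difference in percent female ran from -26.7 to 6.67, positive without fish 1 or fish 2, that in percent hatchery from -80 to -46.7 and that in percent west coast from -50 to -13.3.

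With slide as a fixed block, positive and negative slopes numbered 4 and 1 in fall, 304 and 229 in summer and 1 and 0 in smolts (unadjusted p under 0.05 in limma: 1010 and 1284). In the winter direction were then 2 of the 722 and 0 of the 362 probes in fall, 78 and 30 in summer, and 1 and 0 in smolts (unadjusted: 63 and 4). Without fish below -1 on C189R113, the counts were 6 and 6 in fall, 136 and 125 in summer and 4 and 1 in smolts. Of the 722 and 362 probes, 1 and 0, 40 and 33, and 1 and 0 were in the winter direction. At an unadjusted p under 0.05 in limma, 114 and 50 of them ran that way in fall and 136 and 90 in smolts. Over all probes tested, 872 were positive and 786 negative of 22337 in fall, and 1012 and 975 of 20847 in smolts. These fits hold fewer fish over a narrower range, and their median slopes on the 722 and 362 probes kept their direction, at 0.047 and -0.052 in fall, 0.138 and -0.170 in summer and 0.112 and -0.149 in smolts (0.102 and -0.083, 0.141 and -0.136, and 0.124 and -0.099 with all fish). The cause of the loss within slides was not tested. Slide as a random block, quantile normalization, covariates and the trend and robust options kept the fall counts on both lists within 1.5 times. With 4 and 5 fish, and no slide shared between the sets, single fish and slides limit every comparison of the sets.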
